A study of Homo sapiens with 8 samples.

Results

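The mitochondrial respiratory chain is built from subunits of dual origin, a few encoded in mitochondrial DNA and most in the nucleus, and the nuclear genes are followed here in myeloma cells treated with Zalypsis, a marine-derived compound that binds DNA. The genes were chosen by name, as probe sets whose gene symbol in the platform annotation starts with NDUFA, NDUFB, NDUFC, NDUFS or NDUFV (complex I), UQCR (complex III), COX4, COX5, COX6, COX7 or COX8 (complex IV) or ATP5 (ATP synthase), with the NDUFAF assembly factors and pseudogenes left out. That gave 145 of the 54675 probe sets on the array, 141 of them for 74 protein-coding genes and 4 for 3 noncoding genes named after a neighbour (NDUFB2-AS1, NDUFV1-DT and NDUFV2-AS1), which are kept out of the counts. A further 14 probe sets carry several symbols, so that NDUFC2, UQCRH, NDUFS5 and NDUFS8 have no probe set of their own, and NDUFA4, now named COXFA4, lies outside the rule.

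Expression was read on 8 HG-U133 Plus 2.0 arrays in 4 groups of 2: OPM1 cells with Zalypsis, OPM1 cells without it, MM1S cells with Zalypsis and MM1S cells without it. MM1S and OPM1 are established human myeloma lines, and treated cultures received 5 nM Zalypsis and were collected when 15 to 20% of the cells bound Annexin V, a stain of dying cells. Whether the arrays of a group come from separate cultures is not stated, so each p-value is set against array-to-array spread alone, some of which may be technical. As these are bulk samples, fewer cells of a type and less RNA per cell cannot be told apart.

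Complex I takes electrons from NADH, complex III passes them from ubiquinol to cytochrome c, complex IV hands them to oxygen, and the proton gradient they build drives ATP synthase. In complex I the NDUFV and most NDUFS proteins form the matrix arm that oxidises NADH, while the NDUFB proteins and part of the NDUFA proteins surround the membrane arm. In ATP synthase, the F1 part makes ATP, the c ring turns with the proton flow and the peripheral stalk holds the F1 part still. Plasma cells, the cells from which myeloma arises, export large amounts of antibody and draw on mitochondrial ATP to do so.

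Several properties of the arrays moved with the groups. The OPM1 Zalypsis arrays had upper quartiles of 77.5 and 78.7 signal units, against 101 to 115 on the other 6 arrays, while array medians lay between 23.0 and 24.8. OPM1 control 1 stood apart in the ratio of 3' to 5' signal, at 2.26 for GAPDH and 5.80 for ACTB, against 0.963 to 1.06 and 1.78 to 2.62 elsewhere. The poly-A control transcripts, added before labelling, had a geometric mean of 1862 and 1349 on the OPM1 Zalypsis arrays, 299.7 and 447.9 on the OPM1 control arrays, and 19.7 to 25.7 on the MM1S arrays, where they were at background. Their part in the results was not tested, and a rescaling on them is given beside the OPM1 counts. The summed signal of 10 plasma cell markers was 4349 to 4843 with Zalypsis and 8002 to 8728 without it in OPM1-labelled cells, and 29510 to 30910 with Zalypsis and 39870 to 42180 without it in MM1S cells. For SDC1 (CD138), which defines the plasma cell, untreated OPM1-labelled cells gave 6.56 and 12.9, against 3443 and 2946 in untreated MM1S cells. This marker was thus near 0 under the OPM1 label. CD38, also on that list, went the other way, at 400 and 578 in untreated OPM1-labelled cells, against 61.1 and 47.3 in untreated MM1S cells. The other markers of the list were lower in untreated OPM1-labelled cells, though POU2AF1 was still bright there (2638 and 2724, against 4806 and 4714). The sum of 9 B-lineage markers was 4802 to 6027 with Zalypsis and 10230 to 12100 without it in OPM1-labelled cells, and at most 235.7 on any MM1S array. PAX5, a B-cell factor that plasma cells switch off, was at 2883 and 3556 in untreated OPM1-labelled cells, against 9.54 and 4.23 in untreated MM1S cells. Markers of T and NK cells (4 genes), myeloid cells (3 genes) and stroma (3 genes) summed to 27.0 to 166.8 on every array, with the myeloid sum at 100.1 to 150.2 with Zalypsis and 27.0 to 43.6 without it in OPM1-labelled cells. Of these 3 myeloid genes only CD14 was higher there (122.8 and 74.4, against 5.82 and 4.89), while LYZ was lower and CSF1R overlapped. Single genes also went against their sums in OPM1-labelled cells. The plasma cell gene JCHAIN (3375 and 2951 with Zalypsis, against 1867 and 2194) and the B-lineage gene SPIB (496 and 502, against 250 and 243) were higher. IRF4 and CD79A were not called. These marker sums moved with the groups compared below, and their part in the results was not tested. The label OPM1 is kept below for the arrays, with that limit.

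Levels are the deposited signals on a linear scale. A signal depends on the probes as well as the transcript, so levels are compared between groups of arrays for the same gene and not between genes. Changes were tested with limma on log2(signal + 32), with 1 probe set for each gene and p-values adjusted over all 11865 genes tested, and a gene is said to have risen or fallen where its adjusted p was under 0.05. Of the 74 protein-coding members 69 passed the filter on dim genes, and their probe sets were bright, with a median signal of 2937, against 162.9 over all genes tested. The 5 that did not pass were COX6A2, COX7A1, COX7B2, COX8C and ATP5MF.

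In OPM1-labelled cells Zalypsis moved respiratory chain genes both ways. Of 69 tested members 30 rose (43.5%) and 18 fell (26.1%), while over all genes tested 25.4% rose and 38.5% fell. The share that moved at all, 69.6%, was near the background of 63.9%, and the arrays of the groups did not overlap for 57 of the 69, against 80% of all genes. The members' median log2 change was 0.20, against -0.07 over all genes, and the members' median was 0.09 without OPM1 control 1. By group means of the signal, 7 members were over 2-fold higher and 6 over 2-fold lower, against backgrounds of 11.2% and 26.7%. The direction depends on how arrays are scaled. With the arrays set to the same 75th percentile 47 members rose and 10 fell. That scaling raises every gene on the OPM1 Zalypsis arrays relative to OPM1 control, and counts over all genes are not given for it. With the OPM1 arrays scaled by the poly-A controls 0 members rose and 68 fell (median log2 -1.88, against -1.70 over all genes, of which 62 rose and 11029 fell). Directions below are those on the deposited scale, and all rises in OPM1 become falls, or pass no test, under the poly-A scaling.

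**Figure D1:**
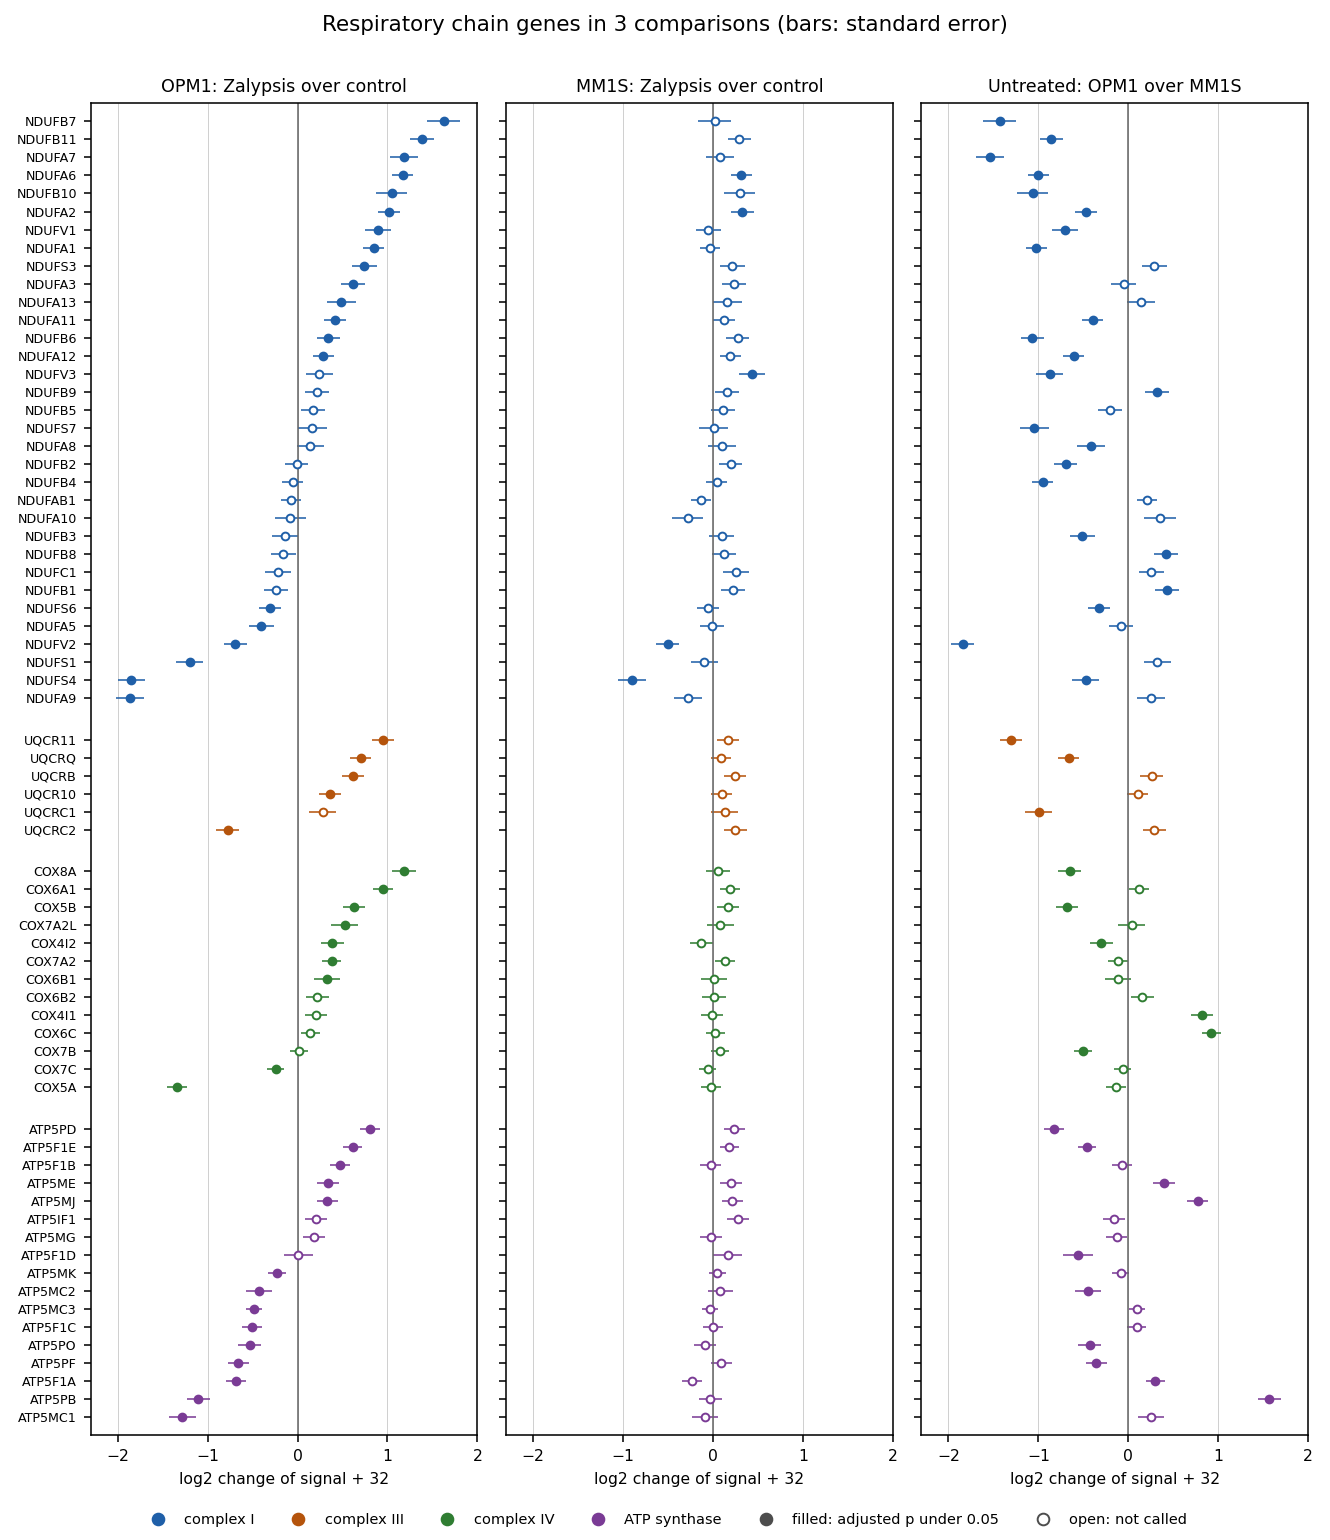
Log2 change (horizontal axis, with standard error bars) of the 69 tested respiratory chain genes, grouped by complex and ordered by their change in OPM1. The left panel shows Zalypsis over control in OPM1, the middle panel Zalypsis over control in MM1S and the right panel untreated OPM1 over untreated MM1S. Filled points passed an adjusted p of 0.05, and OPM1 changes range from -1.86 to 1.62 while MM1S changes range from -0.90 to 0.44.

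The largest rises in OPM1-labelled cells included accessory subunits of complex I, which make up most of its tested members, and COX8A of complex IV. NDUFB7, a subunit on the intermembrane face of the membrane arm, had signals of 960.4 and 932 on the OPM1 Zalypsis arrays, 224 and 362 on the OPM1 control arrays, 852 and 823 on the MM1S Zalypsis arrays and 957 and 709 on the MM1S control arrays. The treated OPM1 arrays lay far above the untreated ones and near the MM1S level, a log2 change of 1.62 ± 0.18 (limma, adjusted p = 7.85e-08). This value comes from a probe set that may also match related transcripts (suffix _s_at), and a dim set for the gene (mean signal 43.4) gave 0.07 ± 0.12, which did not pass. NDUFB11, a membrane arm subunit encoded on the X chromosome, had signals of 3027 and 3049 on the OPM1 Zalypsis arrays, 1104 and 1191 on the OPM1 control arrays, 2660.1 and 2507 on the MM1S Zalypsis arrays and 2288 and 1929 on the MM1S control arrays. It too was low in untreated OPM1-labelled cells and high on both treated arrays (log2 1.38 ± 0.13, adjusted p = 4.98e-09). NDUFA7 and NDUFA6 belong to the matrix arm, where NDUFA6 docks the mitochondrial acyl carrier protein. NDUFA7 was at 1114 and 996 with Zalypsis, against 399 and 500.5 in control (log2 1.18 ± 0.16). NDUFA6 was at 3997 and 4032 with Zalypsis, against 1683 and 1861 in control (log2 1.17 ± 0.11). NDUFB10, a membrane arm subunit, was at 2080.1 and 2041 with Zalypsis, against 775 and 1239 in control (log2 1.05 ± 0.17), with the control arrays themselves well apart. In complex IV, COX8A, the ubiquitous form of its smallest subunit, was at 5076 and 4526 with Zalypsis, against 1834 and 2375 in control (log2 1.19 ± 0.13, adjusted p = 5.19e-08), and the arrays of the groups did not overlap.

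The deepest falls were spread over complexes I and IV and ATP synthase. NDUFA9, an accessory subunit at the base of the matrix arm where it meets the membrane, had signals of 339.5 and 324 on the OPM1 Zalypsis arrays, 1403 and 1182 on the OPM1 control arrays, 947 and 829 on the MM1S Zalypsis arrays and 1190.0 and 974 on the MM1S control arrays. Its treated OPM1 arrays were the lowest of the 8, a log2 change of -1.86 ± 0.16 (adjusted p = 6.68e-10). NDUFS4, a matrix arm subunit whose loss causes Leigh syndrome, had signals of 186 and 200.0 on the OPM1 Zalypsis arrays, 826 and 730.4 on the OPM1 control arrays, 598 and 545 on the MM1S Zalypsis arrays and 1211 and 985 on the MM1S control arrays. It fell with Zalypsis in both lines, with a log2 change of -1.85 ± 0.15 in OPM1 (adjusted p = 6.26e-10) and -0.90 ± 0.15 in MM1S (adjusted p = 7.03e-05). NDUFS1, the largest core subunit of complex I and a carrier of iron-sulfur clusters, was at 344 and 386 with Zalypsis, against 849.6 and 910.0 in control in OPM1 (log2 -1.20 ± 0.15), while its MM1S arrays gave 641 and 658 with Zalypsis, against 754 and 643 in control. The brightest NDUFS1 set that is not shared between transcripts gave -0.01 ± 0.19 in OPM1, and 2 dimmer ones called in the probe set fit gave -0.43 and -0.71.

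COX5A, a nuclear-encoded subunit of complex IV, had signals of 1669.9 and 1588 on the OPM1 Zalypsis arrays and 4312 and 4026 on the OPM1 control arrays. It was at 4456 and 4532 on the MM1S Zalypsis arrays and 4509 and 4642 on the MM1S control arrays. The treated OPM1 arrays stood far below the other 6 (log2 -1.34 ± 0.11, adjusted p = 5.73e-10). ATP5MC1, one of the genes of the c ring, was at 1203 and 1264 with Zalypsis, against 2589.6 and 3569.8 in control in OPM1 (log2 -1.28 ± 0.15). ATP5PB, the b subunit of the peripheral stalk, had signals of 2897 and 2988 on the OPM1 Zalypsis arrays, 5809 and 6939 on the OPM1 control arrays, 2234 and 1933 on the MM1S Zalypsis arrays and 2297 and 1961 on the MM1S control arrays. Untreated OPM1-labelled cells were the highest group, and the treated arrays still lay above MM1S (log2 -1.10 ± 0.13 with Zalypsis in OPM1, adjusted p = 1.29e-07). A dim second set for ATP5PB, with a mean signal of 44.1, gave 0.12 ± 0.15 and did not pass.

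**Figure D2:**
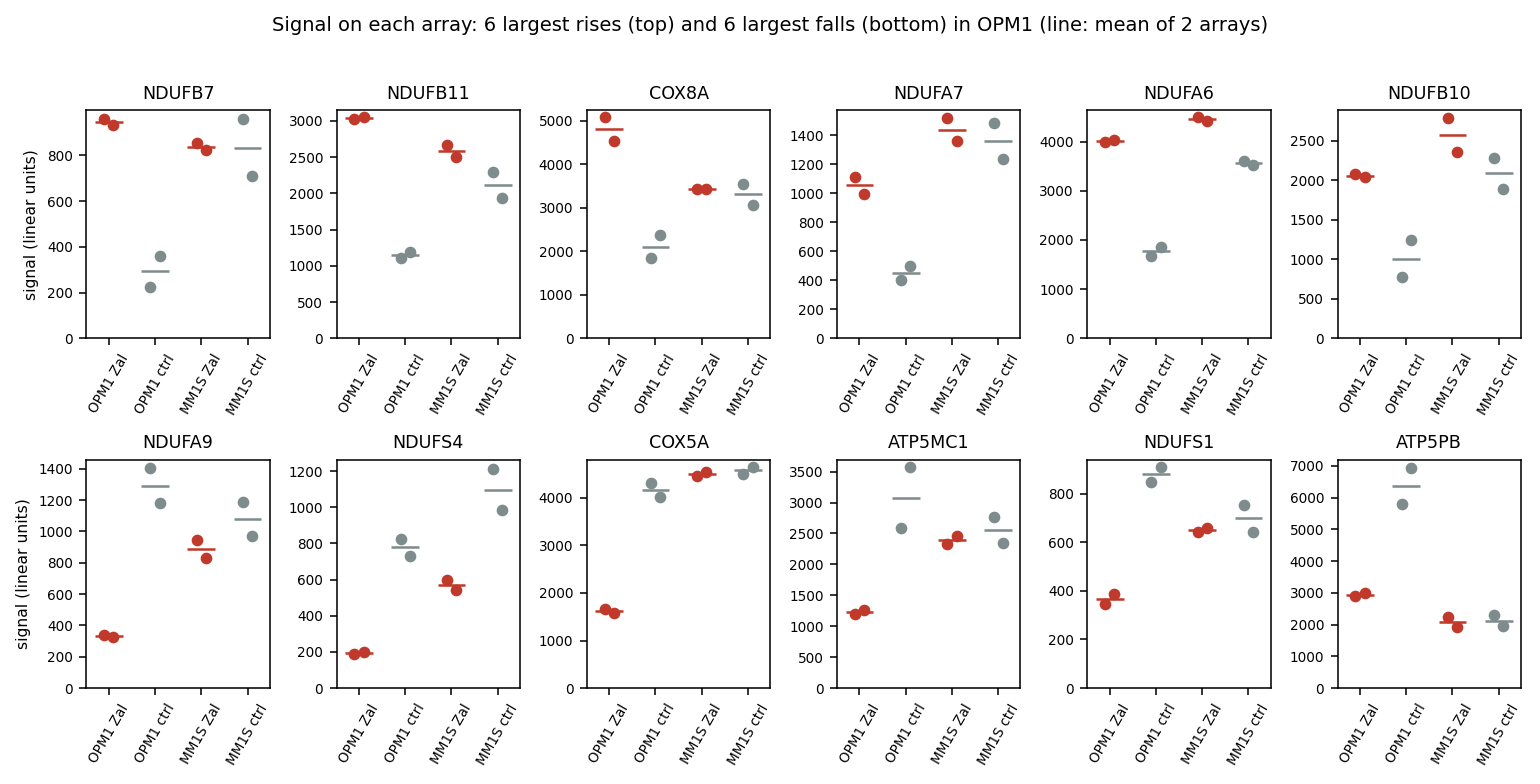
Signal in linear units (vertical axis) on each array for the 6 members with the largest rise (top row) and the 6 with the largest fall (bottom row) in OPM1. Points are arrays and lines the mean of 2, with Zalypsis in red and control in grey. In the top row the OPM1 control arrays are the lowest of the 8 for each gene, and in the bottom row the OPM1 Zalypsis arrays are the lowest for each gene but ATP5PB.

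Promoters are shown for 4 of these genes because members that moved together can be set beside the letters at their starts: NDUFB7 and COX6A1, which rose in OPM1, and NDUFA9 and NDUFS4, which fell. They run from 250 bases before to 50 after the annotated start in RefSeq (GRCh38.p14). Capitals mark GCGCATGC (the core of the motif of NRF1, a regulator of respiratory genes), CCGGAAG (bound by ETS factors such as GABPA), AAGATGGC (YY1), TATAAA (the TATA box) and CCAAT (NFY), searched on both strands, and no capital stretches overlap in these 4.
NDUFB7: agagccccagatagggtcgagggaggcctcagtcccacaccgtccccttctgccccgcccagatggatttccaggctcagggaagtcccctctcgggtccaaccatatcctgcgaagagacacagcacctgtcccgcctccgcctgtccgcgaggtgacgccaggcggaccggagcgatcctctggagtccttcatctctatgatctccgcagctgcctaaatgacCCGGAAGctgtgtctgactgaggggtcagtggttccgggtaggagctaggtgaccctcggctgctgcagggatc
COX6A1: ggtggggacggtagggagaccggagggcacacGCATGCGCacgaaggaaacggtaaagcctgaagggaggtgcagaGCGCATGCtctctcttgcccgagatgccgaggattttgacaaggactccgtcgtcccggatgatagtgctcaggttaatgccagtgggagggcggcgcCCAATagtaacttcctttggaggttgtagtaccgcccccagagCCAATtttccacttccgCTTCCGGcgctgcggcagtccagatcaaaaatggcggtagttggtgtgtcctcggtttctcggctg
NDUFA9: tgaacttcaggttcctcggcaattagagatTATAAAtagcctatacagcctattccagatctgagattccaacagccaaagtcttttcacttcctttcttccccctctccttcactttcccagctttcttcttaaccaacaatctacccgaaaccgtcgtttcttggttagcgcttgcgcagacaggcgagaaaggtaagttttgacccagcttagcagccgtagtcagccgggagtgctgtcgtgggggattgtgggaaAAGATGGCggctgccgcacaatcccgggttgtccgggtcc
NDUFS4: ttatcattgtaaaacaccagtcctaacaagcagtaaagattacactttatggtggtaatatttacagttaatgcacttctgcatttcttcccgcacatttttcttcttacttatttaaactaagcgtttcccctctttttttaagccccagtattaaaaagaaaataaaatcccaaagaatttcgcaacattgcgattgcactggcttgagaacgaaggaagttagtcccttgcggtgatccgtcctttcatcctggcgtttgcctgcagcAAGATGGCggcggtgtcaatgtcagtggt
They lie at chr19:14572017-14572316 (minus strand), chr12:120437863-120438162 (plus), chr12:4648864-4649163 (plus) and chr5:53560389-53560688 (plus). In NDUFB7 the ETS letters begin 24 bases before the start, and in COX6A1 they begin 16 before it on the opposite strand, downstream of GCGCATGC at 218 (opposite strand) and 174 before the start. In NDUFA9 and NDUFS4 AAGATGGC begins at base 11 and base 22 after the start. Other members with large changes differ from these examples. NDUFA7 and NDUFA6, which rose, held AAGATGGC and no CCGGAAG, and NDUFB11 and NDUFB10, which rose, held neither. NDUFS1, which fell, held CCGGAAG, and COX5A and ATP5MC1, which fell, held neither. COX8A, which rose, held CCGGAAG, and ATP5PB, which fell, held AAGATGGC.

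Over the 64 members with a promoter in the table, 17.2% held GCGCATGC (11 genes), against 3.27% of all 27305 promoters. GCGCATGC can overlap its own reverse complement, as in ATP5F1C, and such a pair counts as 1 promoter. CCGGAAG was in 26.6% (17 genes), against 10.7% of all promoters, and AAGATGGC in 15.6% (10 genes), against 3.03%. TATAAA (10.9%, against 12.0%) and CCAAT (35.9%, against 35.7%) were held in shares close to those elsewhere. Among members that rose in OPM1, 12 of 27 with a promoter held CCGGAAG (44.4%), against 3 of 17 that fell (17.6%). AAGATGGC was in 3 of the 27 that rose (11.1%) and in 5 of the 17 that fell (29.4%), and GCGCATGC in 4 of 27 (14.8%) and 4 of 17 (23.5%). Among 17 tested members not called in OPM1, the shares were 11.8% for CCGGAAG, 11.8% for AAGATGGC and 17.6% for GCGCATGC. These shares are descriptions of letters, untested, over few genes. The median GC content was 61.0% for members, 62.3% for those that rose, 58.3% for those that fell and 58.3% for all promoters.

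The level of a typical member moved less than these genes. The median signal over the 69 members was 2842 and 2836 on the OPM1 Zalypsis arrays, 2141 and 2273 on the OPM1 control arrays, 3429 and 3217 on the MM1S Zalypsis arrays and 2865 and 2695 on the MM1S control arrays. Over all genes tested the medians ran the other way, at 114.7 and 115.5 on the OPM1 Zalypsis arrays and 173.6 and 179.8 on the OPM1 control arrays, and at 187.5 and 174.8 on the MM1S Zalypsis arrays and 216.9 and 198 on the MM1S control arrays.

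Within complex I, 14 of 33 tested members rose in OPM1 and 6 fell, with a median log2 change of 0.18. By family, 8 of 13 NDUFA, 4 of 11 NDUFB and 1 of 3 NDUFV genes rose. In the same families 2 NDUFA genes, 0 NDUFB genes and 1 NDUFV gene fell (0 NDUFB genes by limma also at an unadjusted p under 0.05). Accessory subunits make up most of the tested complex I members, so their number among the rises shows no preference for them. Of the genes for core matrix arm subunits and their neighbours, NDUFS had 1 rise and 3 falls in 5. NDUFV1, the flavoprotein that accepts electrons from NADH, was at 2842 and 2862 with Zalypsis, against 1369 and 1685 in control (log2 0.89 ± 0.14), and the groups did not overlap. Its partner NDUFV2 fell, at 816 and 927 with Zalypsis, against 1441 and 1404 in control (log2 -0.69 ± 0.13). NDUFS3, a core subunit near the middle of the arm, was at 3381 and 3315 with Zalypsis, against 1916 and 2062 in control (log2 0.74 ± 0.14), so that core subunits of the same arm rose and fell in the same cells. NDUFS7, the core subunit that passes electrons to ubiquinone, did not pass (0.16), nor did NDUFAB1, the acyl carrier protein (-0.07). NDUFB8, often used as a protein marker of complex I, was at 3381 and 2836 with Zalypsis, against 3039 and 3934 in control, with overlapping groups and no call (log2 -0.16 ± 0.14, adjusted p = 0.327).

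The other complex I members that rose in OPM1 (log2) were NDUFA2 (1.02), NDUFA1 (0.85), NDUFA3 (0.61), NDUFA13 (0.49), NDUFA11 (0.42), NDUFB6 (0.34) and NDUFA12 (0.29). NDUFA13, also known as GRIM-19, and NDUFA11, which helps hold the membrane arm together, are among the accessory subunits whose loss stops assembly of the complex. The other falls were in NDUFS6 (-0.31) and NDUFA5 (-0.40), and NDUFA5, a small matrix arm subunit, was at 1232 and 1190.4 with Zalypsis, against 1698 and 1528 in control. The other members not called were NDUFV3 (0.24), NDUFB9 (0.22), NDUFB5 (0.18), NDUFA8 (0.14), NDUFB2 (-0.01), NDUFB4 (-0.05), NDUFA10 (-0.08), NDUFB3 (-0.14), NDUFC1 (-0.22) and NDUFB1 (-0.24).

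In complex III 4 of 6 tested members rose in OPM1 and 1 fell, with a median of 0.49. The small subunits UQCR11 (log2 0.95), UQCRQ (0.70), UQCRB (0.62) and UQCR10 (0.36) rose. UQCRQ was at 5133 and 5039 with Zalypsis, against 2853 and 3399 in control, and UQCR11 at 3102 and 2821 with Zalypsis, against 1421 and 1619 in control. The core proteins, which face the matrix, went apart: UQCRC2 fell, at 1258 and 1309.8 with Zalypsis, against 2228 and 2213 in control (log2 -0.78 ± 0.13, adjusted p = 1.64e-05), while UQCRC1 was at 1105 and 1117 with Zalypsis, against 874 and 944 in control and did not pass (log2 0.28 ± 0.15, adjusted p = 0.109).

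In complex IV 7 of 13 tested members rose in OPM1 and 2 fell, with a median of 0.33. COX6A1, the widely expressed form of subunit 6A, was at 7395 and 7157 with Zalypsis, against 3369 and 4157 in control (log2 0.95 ± 0.11), and the treated arrays were the highest of the 8. COX5B was at 4414 and 4244 with Zalypsis, against 2451 and 3194 in control (log2 0.62 ± 0.12), opposite to COX5A, its fellow nuclear subunit. COX7A2L, which helps join complexes III and IV into supercomplexes, rose to 1676 and 1829 with Zalypsis, against 1217 and 1201 in control (log2 0.52 ± 0.15). COX7A2 rose by 0.38, and COX6B1 by 0.33 with overlapping arrays (4655 and 4844 with Zalypsis, against 3005 and 4712 in control), a call that ended without OPM1 control 1 (log2 0.01, adjusted p = 0.942). COX7C fell (-0.24 ± 0.09), at 5085 and 5034 with Zalypsis, against 5916 and 6086 in control. COX4I1 (0.20), COX6C (0.14), COX7B (0.01) and COX6B2 (0.22) did not pass.

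Tissue forms of complex IV subunits were dim, except COX8C on the OPM1 Zalypsis arrays. COX4I2, the lung form induced by low oxygen, was at 58.4 and 58.2 on the OPM1 Zalypsis arrays, 41.5 and 32.9 on the OPM1 control arrays, 45.7 and 45.7 on the MM1S Zalypsis arrays and 53.2 and 52.8 on the MM1S control arrays, near the limit for testing, with a rise of 0.39 ± 0.13 in OPM1 (adjusted p = 0.0109). COX6A2 and COX7A1, forms of striated muscle, and COX7B2, a testis form, had signals of 1.00 to 21.7 on all 8 arrays and were not tested. COX8C, a testis form of subunit 8, was at 188 and 167 on the OPM1 Zalypsis arrays, 7.02 and 5.18 on the OPM1 control arrays, 2.12 and 4.44 on the MM1S Zalypsis arrays and 3.12 and 2.61 on the MM1S control arrays. The filter on the mean over 8 arrays left it out, and in the fit with no filter its log2 change was 2.46 ± 0.12 in OPM1 (adjusted p = 2.57e-09) and 0.02 ± 0.12 in MM1S (adjusted p = 0.958). It lies outside the rule for naming genes and was picked after its values were seen.

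ATP synthase was the complex with more falls than rises in OPM1 on the deposited scale, 9 against 5 of 17 tested members with a median log2 change of -0.23, but at a common 75th percentile 9 rose and 4 fell (median 0.19). By quantile normalization 6 rose and 9 fell. On the deposited scale all 3 genes of the c ring, which encode the same mature protein with different import sequences, fell: ATP5MC1 (log2 -1.28), ATP5MC3 (-0.48) and ATP5MC2 (-0.43). ATP5MC3 was at 5510.0 and 5837 with Zalypsis, against 8007 and 7862 in control, and ATP5MC2 at 1049 and 1069 with Zalypsis, against 1409 and 1466 in control, without overlap in either. At a common 75th percentile 1 of the 3 was called, and it fell. Of 4 peripheral stalk genes, ATP5PB, ATP5PF (-0.66) and ATP5PO (-0.53) fell and ATP5PD, the d subunit, rose (3999 and 4060.2 with Zalypsis, against 2141 and 2467 in control, log2 0.80 ± 0.11). The F1 part was split as well. ATP5F1A, the alpha subunit, was at 4801 and 5339 with Zalypsis, against 7340.4 and 9056 in control (log2 -0.68 ± 0.11, adjusted p = 8.86e-06). ATP5F1B, the catalytic beta subunit, was at 7304 and 7131 with Zalypsis, against 4566 and 5897 in control (log2 0.47 ± 0.11, adjusted p = 0.000916), so that subunits that alternate in the same ring moved in opposite directions. Gamma, the central shaft, fell (ATP5F1C, -0.51), epsilon rose (ATP5F1E, 0.61) and delta did not pass (ATP5F1D, 0.01). ATP5IF1, which blocks the enzyme from running backwards, did not pass (0.20). Of the remaining genes, which encode small proteins of the membrane part, ATP5ME (0.34) and ATP5MJ (0.33) rose, ATP5MK (-0.23) fell and ATP5MG (0.18) did not pass. For ATP5MF, the f subunit, the only set with 1 symbol was left out as dim (20.6 and 21.1 with Zalypsis, against 10.6 and 9.24 in control in OPM1). In the limma fit with no filter it was higher in OPM1 (log2 0.33 ± 0.12, adjusted p = 0.04), at signals near background.

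Different probe sets of 1 gene did not always move alike. Over 125 tested member probe sets, 54 rose and 32 fell in OPM1 (22% and 35.9% over all 24655 probe sets tested). In 7 of 36 genes with several tested sets, sets were called in opposite directions in OPM1, and in each the odd one was dim. For ATP5F1C, 3 sets with mean signals of 3277 to 3742 fell (log2 -0.51 to -0.59), while a set with a mean of 155 rose by 0.90. For NDUFS4 the bright set gave -1.85 and a set with a mean of 29.3 gave 0.89. UQCR11 (0.95 and -0.86), COX5B (0.62 and -0.55), ATP5F1E (0.61 and -0.42), NDUFA5 (-0.40 and 0.96) and UQCRC2 (-0.78 and 0.51) were the others, with the brightest set given first. Some genes whose brightest set was not called in OPM1 had a dimmer set that was. Among these dimmer sets, that of ATP5MG fell (-1.47, mean signal 511), as did that of COX7B (-1.13, mean 44.75). Those of NDUFB1 (1.12, mean 208), ATP5IF1 (0.89, mean 264) and COX4I1 (0.89, mean 60.8) rose. With sets that can match several transcripts left out, 24 of 54 members rose and 12 fell, and counts over all genes are not given for that setting.

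In MM1S few members moved. Of 69 tested members 3 rose (4.35%) and 2 fell (2.9%), where 16.4% of all genes tested rose and 21.1% fell. The share called was 7.25%, against 37.6%, and 0 members differed over 2-fold by group means, against 3.77% of all genes higher and 9.9% lower. The members' median log2 change was 0.09, against 0.02. Among genes of like brightness, with a mean signal of 1000 to 5000, 5.88% of 51 members were called, against 26.8% of 1140 genes. The groups of arrays did not overlap for 33 of the 69, against 66.4% of all genes.

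With 1 probe set for each gene, the members that moved in MM1S were all of complex I. NDUFV3, an accessory subunit of the NADH-oxidising module, was at 895 and 864 with Zalypsis, against 666 and 619.7 in control (log2 0.44 ± 0.15, adjusted p = 0.0227). NDUFA2, a matrix arm subunit with a thioredoxin fold, was at 3608 and 3380.3 with Zalypsis, against 2865 and 2695 in control (log2 0.33 ± 0.13, adjusted p = 0.0449). NDUFA6 was at 4497 and 4411, against 3609 and 3528 (log2 0.32 ± 0.11, adjusted p = 0.0317). These rises were small but the arrays did not overlap, and 0 members rose without MM1S control 2, without MM1S Zalypsis 1 or without MM1S Zalypsis 2. NDUFV2, which carries an iron-sulfur cluster beside the flavin, was at 3581 and 3709.7 with Zalypsis, against 5522 and 4857 in control (log2 -0.50 ± 0.13, adjusted p = 0.00371). Its fall and that of NDUFS4 stayed called with each of these 3 arrays left out in turn. Scaling again changed the count, with 19 rises and 3 falls after quantile normalization and 22 rises and 2 falls at a common 75th percentile. Counts over all genes are not given for these settings. The 75th percentile raises every gene on the MM1S Zalypsis arrays relative to MM1S control.

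Core members in MM1S differed little between the groups. ATP5F1A was at 5594 and 5654 with Zalypsis, against 7020.0 and 6232 in control (log2 -0.23 ± 0.11, adjusted p = 0.0987). COX5A was at 4456 and 4532, against 4509 and 4642 (log2 -0.03 ± 0.11). A dim COX5A set with a mean signal of 109.5, however, was lower with Zalypsis in MM1S, at 92.3 and 94.1 against 200.2 and 179 (log2 -0.82 ± 0.13, adjusted p = 0.000256), as it was in OPM1 (-2.01). COX4I1 (-0.01), ATP5F1B (-0.03), NDUFV1 (-0.05) and COX8A (0.06) did not pass either. By limma 0 of 17 tested ATP synthase members were called in MM1S, with 2 higher and 1 lower at an unadjusted p under 0.05 and 5 rises and 1 fall after quantile normalization. In complexes III (6 tested) and IV (13 tested) 0 were called in MM1S, also at an unadjusted p under 0.05, with 2 rises and 1 rise after quantile normalization. These counts rest on 1 set per gene. In the probe set fit, 9 of 125 member sets rose and 4 fell in MM1S (12.6% and 19.5% over all 24655 sets). Dimmer sets called there included those of ATP5ME (0.42, mean signal 1813), ATP5F1C (0.52, mean 155) and NDUFB1 (0.98, mean 208), which rose. A dim UQCR11 set fell (-0.68, mean 86.4).

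Set side by side, 2 members rose in both lines (NDUFA2 and NDUFA6), which is 2.9%, against 9.55% of all genes. Another 2 fell in both (NDUFS4 and NDUFV2), 2.9% against 17.6%, and 20 were called in neither, 29% against 28%. In OPM1 with no call in MM1S, 28 rose (40.6%, against 15.4% of all genes) and 16 fell (23.2%, against 19%). In MM1S with no call in OPM1, 1 rose (NDUFV3, 1.45%, against 5.03%). Called in opposite directions were 0 members, against 1.85% of all genes (higher in MM1S) and 0.43% (lower in MM1S). The difference between the responses, OPM1 minus MM1S, was itself called for 32 members, 18 higher and 14 lower in OPM1, with no more calls than among genes at large (46.4%, against 46.6%). The higher share was 26.1%, against 15.3%, and the lower share 20.3%, against 31.2% of all genes, with medians of 0.11 and -0.13. The difference was largest for NDUFB7 (1.60 ± 0.26, adjusted p = 3.14e-05) on the higher side and NDUFA9 (-1.59 ± 0.22, adjusted p = 4.88e-06) on the lower side. UQCRC2 (-1.02 ± 0.18) and NDUFV1 (0.95 ± 0.20) were also among the largest, as was NDUFA1, a small accessory subunit encoded on the X chromosome (0.88 ± 0.16). For NDUFS4, lower with Zalypsis in both lines, the fall was deeper in OPM1 (difference -0.95, adjusted p = 0.00115), while for NDUFV2 the difference of -0.19 ± 0.18 did not pass (adjusted p = 0.432).

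**Figure D3:**
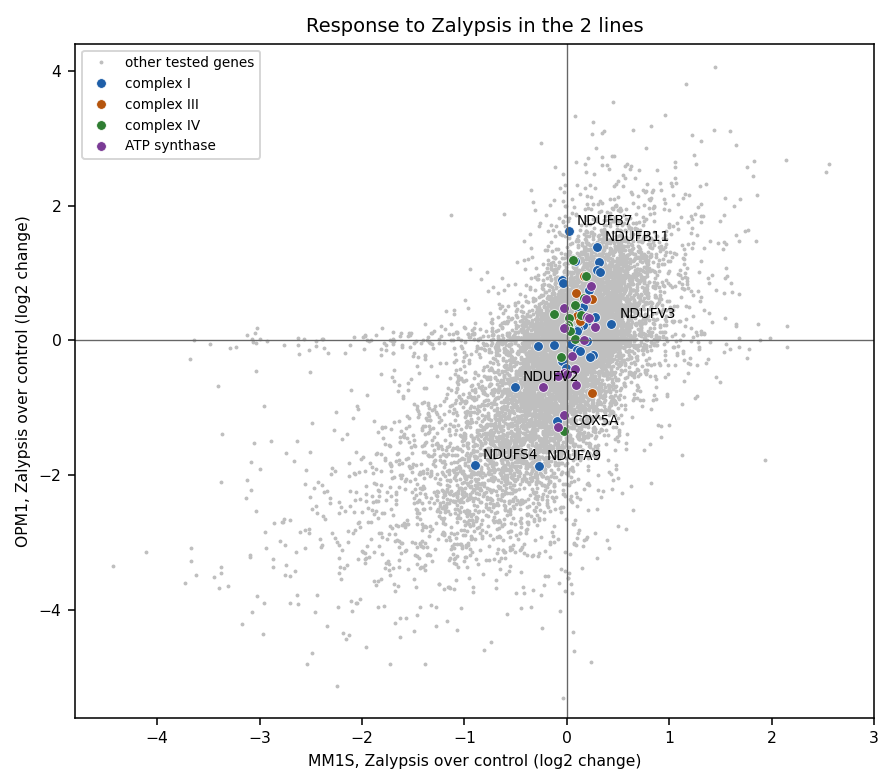
Log2 change with Zalypsis in MM1S (horizontal axis) and in OPM1 (vertical axis) for all 11865 tested genes (grey) and the 69 respiratory chain genes (coloured by complex). The coloured points form a narrow upright band, from -0.90 to 0.44 in MM1S and from -1.86 to 1.62 in OPM1.

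Before treatment the lines already differed. Untreated OPM1-labelled cells had 33 members lower (47.8%) and 9 higher (13%) than untreated MM1S cells, against 35.2% lower and 28.6% higher over all genes, with a median of -0.16, against -0.05. The share called, 60.9%, was near the background of 63.7%. The arrays did not overlap for 53 of the 69 (79.6% of all genes), and by group means 1 member was over 2-fold higher and 10 over 2-fold lower, against backgrounds of 13.8% and 19%. In complex I, 20 of 33 tested members were lower and 3 higher (median -0.47), including 7 of 11 NDUFB and all 3 NDUFV genes on the lower side. NDUFV2 was at 1441 and 1404 in untreated OPM1-labelled cells, against 5522 and 4857 in untreated MM1S cells (log2 -1.84 ± 0.13, adjusted p = 3.72e-11). NDUFA7 was at 399 and 500.5 in OPM1, against 1485 and 1235 in MM1S (log2 -1.53 ± 0.16). NDUFB7 (-1.43), NDUFB6 (-1.07) and NDUFB10 (-1.06) of the membrane arm were lower as well, as was UQCR11 of complex III, at 1421 and 1619 against 3909 and 3698 (log2 -1.31 ± 0.12). For 2 of these genes a dim second set did not follow: that of UQCR11 was higher in untreated OPM1-labelled cells (0.34 ± 0.13, adjusted p = 0.0427), and that of NDUFB7 gave 0.16 ± 0.12 and was not called.

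ATP5PB was the member most above MM1S, at 5809 and 6939 in untreated OPM1-labelled cells, against 2297 and 1961 in untreated MM1S cells (log2 1.57 ± 0.13), while its dim second set gave -0.07 ± 0.15 and was not called. COX6C was at 6059 and 6709.6 in OPM1, against 3558 and 3161 in MM1S (log2 0.92 ± 0.11), and COX4I1, the ubiquitous form of the largest nuclear subunit of complex IV, at 5212 and 6788 against 3615 and 3105 (log2 0.82 ± 0.12). ATP5MJ (0.77), NDUFB1 (0.43) and NDUFB8 (0.42) followed, though 2 further NDUFB8 sets (0.18 and -0.24) were not called. The count of higher members depended on single arrays and on scaling. It was 18 after quantile normalization and 20 at a common 75th percentile, and counts over all genes are not given for these settings. These values share the OPM1 control arrays with the OPM1 response, so the low start of NDUFB7, NDUFB10 and NDUFA7 and their rise with Zalypsis rest in part on the same 2 arrays. Their treated OPM1 signals can be set against the MM1S arrays directly: NDUFB7 reached 960.4 and 932, close to or above the 957 and 709 of untreated MM1S, NDUFA7 reached 1114 and 996, below the 1485 and 1235 of untreated MM1S, and NDUFB11 reached 3027 and 3049, above the 2288 and 1929 there.

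Respiratory chain genes are short, with a median span of 9.94 kb from start to end of the gene, against 28.3 kb over all genes tested, and the counts were split by span. In OPM1, 21 of 35 members under 10 kb rose and 4 fell (60% and 11.4%), against 43.8% and 14.9% of all genes of that span. Of 25 members of 10 to 30 kb, 7 rose and 8 fell (28% and 32%), against 33.8% and 25.2% of all such genes. Of 9 members of 30 kb and over 2 rose and 6 fell (22.2% and 66.7%), against 11.5% and 57.8%. The 6 that fell at 30 kb and over were NDUFS4 (122.7 kb), NDUFA5 (64.7 kb), NDUFA9 (45.2 kb), NDUFS1 (44.6 kb), NDUFV2 (31.6 kb) and UQCRC2 (30.3 kb). The 2 that rose there were COX7A2L (33.4 kb) and NDUFA12 (32.4 kb), and NDUFA10, the longest tested member at 132.9 kb, did not pass (-0.08). The 4 that fell under 10 kb were COX7C (3.02 kb), ATP5MC1 (3.08 kb), ATP5MC3 (5.45 kb) and ATP5MK (7.43 kb). In MM1S the 2 falls among 9 members of 30 kb and over were those of NDUFS4 and NDUFV2, while 38.3% of all genes of that span fell. Of 35 members under 10 kb 2 rose in MM1S (5.71%), against 25.5% of all genes of that span.

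**Figure D4:**
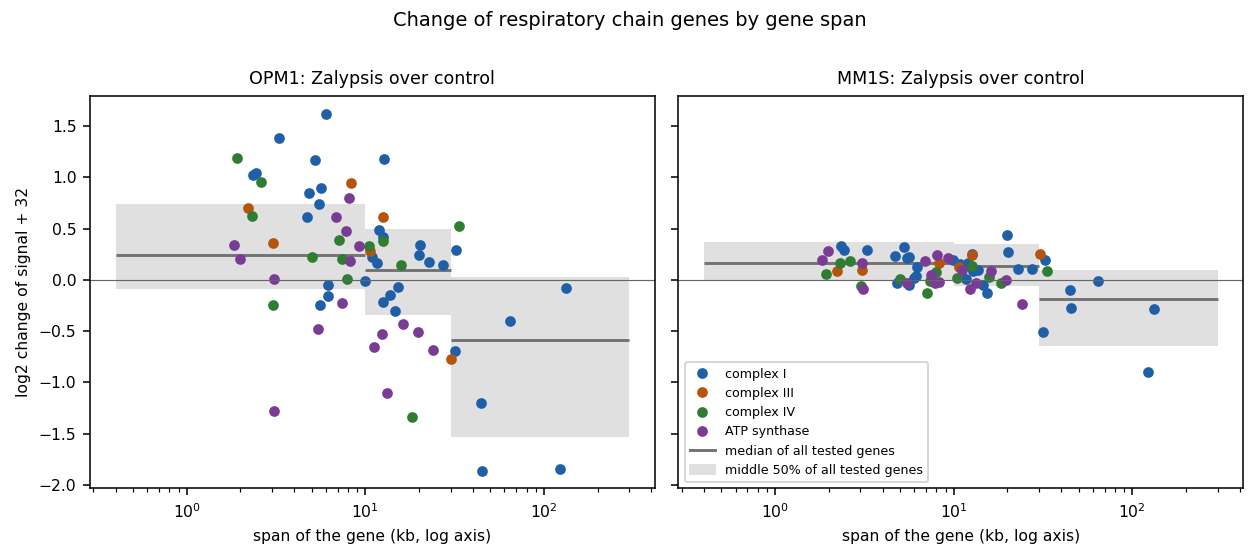
Log2 change with Zalypsis (vertical axis) against gene span in kb (horizontal, log axis) for the 69 tested respiratory chain genes in OPM1 (left) and MM1S (right), coloured by complex. Grey lines and bands give the median and the middle 50% of all tested genes in 3 classes of span, where the OPM1 median is 0.24 under 10 kb and -0.59 at 30 kb and over.

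Other genes of the pathway were counted from lists chosen by role, to be read beside the shares over all genes tested, which were 25.4% higher and 38.5% lower in OPM1 and 16.4% higher and 21.1% lower in MM1S. Of 5 tested genes of complex II and cytochrome c, 2 fell in OPM1, SDHC (-0.85) and SDHA (-0.66), and 0 were called in MM1S by limma, also at an unadjusted p under 0.05. At a common 75th percentile 3 of them rose and 1 fell in OPM1 (median 0.48, against 0.06 on the deposited scale), and 2 rose in MM1S. Of 15 factors that assemble complex I, 4 rose and 8 fell in OPM1 (median log2 -0.83) and 0 rose and 5 fell in MM1S by limma (median -0.23), where 1 was higher at an unadjusted p under 0.05. NUBPL, which delivers iron-sulfur clusters to complex I, fell in both lines (OPM1 -2.32, MM1S -1.02), as did COA1 (OPM1 -2.02, MM1S -0.47). FOXRED1 (-1.84) and NDUFAF6 (-1.23) were among the deepest falls in OPM1, and NDUFAF2 (-1.11) and ECSIT (-0.61) in MM1S. Among 30 assembly factors of complexes III and IV and ATP synthase, 16 rose and 8 fell in OPM1 (median 0.40), and 6 rose and 4 fell in MM1S (median 0.10). In OPM1 the deepest falls of that list were in LRPPRC, which stabilises mitochondrial transcripts (-1.86), LYRM7 (-1.85), UQCC1 (-1.75) and COX14 (-1.64). In MM1S COX10, which makes heme for complex IV, fell (-1.40), as did UQCC1 (-0.97), while COA5 (0.93) and SCO2, a copper carrier and p53 target (0.85), rose.

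Regulators of mitochondrial biogenesis moved both ways. PPARGC1B, a coactivator that switches on respiratory genes, fell in both lines (OPM1 -3.36, MM1S -1.42). TFAM, which packs and transcribes mitochondrial DNA, rose by 1.29 in OPM1 and 0.63 in MM1S. TFB1M, which methylates mitochondrial ribosomal RNA, fell in OPM1 (-2.29), as did the coactivator PPRC1 (-0.81). In MM1S the transcription factor NRF1 rose (0.71) and GABPB1, a partner of GABPA, fell (-0.89). Of 14 tested regulators, 2 rose and 6 fell in OPM1 (median -0.26), and 4 rose and 4 fell in MM1S (median -0.05), and at a common 75th percentile 4 rose and 4 fell in OPM1 (median 0.16). In the citric acid cycle, which supplies NADH to complex I, 3 of 11 genes rose and 6 fell in OPM1 (median -0.87, but 0.35 with 5 and 5 after quantile normalization) and 0 rose and 3 fell in MM1S by limma (median -0.19, 1 higher at an unadjusted p under 0.05), with SUCLG2 (OPM1 -1.76, MM1S -1.57), OGDH (OPM1 -1.47, MM1S -0.92) and CS (OPM1 -1.39, MM1S -0.41) lower in both. Of 15 tested import genes 3 rose and 5 fell in OPM1 (median 0.06), which became 8 and 1 at a common 75th percentile, and 1 rose and 5 fell in MM1S (median -0.21). TOMM70, a receptor of the outer membrane, fell in both lines (OPM1 -1.22, MM1S -0.67), and TIMM22, the channel for carrier proteins, had the largest change of the list in OPM1 (1.98).

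Of the 13 mitochondrially encoded subunits 7 had a probe set that was tested, and 2 rose in OPM1, COX3 (0.55) and ND2 (0.30), while ND6 rose in MM1S (1.20). In both lines 0 fell by limma, also at an unadjusted p under 0.05. The OPM1 count depended on scaling, with 6 of 7 higher at a common 75th percentile (median 0.41, against -0.01 on the deposited scale) and 7 of 7 lower under the poly-A scaling. COXFA4, a complex IV subunit once counted to complex I as NDUFA4, was at 7146 and 7133 with Zalypsis, against 3486 and 4523 in control, in OPM1 (log2 0.84 ± 0.11, adjusted p = 1.15e-06), and at 5213 and 5201, against 4910.4 and 4505, in MM1S (log2 0.15 ± 0.11, adjusted p = 0.347). Of the noncoding neighbours, a dim probe set of NDUFV2-AS1 rose with Zalypsis in OPM1 (54.9 and 55.0, against 20.0 and 29.3, log2 0.62 ± 0.12) and in MM1S (162 and 164, against 106 and 117, log2 0.45 ± 0.12), where NDUFV2 itself fell. A second, dimmer NDUFV2-AS1 set was called in neither line (OPM1 0.07 ± 0.14, MM1S 0.23 ± 0.14). Array probes of a known strand can tell a gene from its antisense partner, but the strand of these probes was not checked here.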

How the data were processed

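RNA of 2 myeloma lines, with and without Zalypsis, was read on 8 arrays. Per the labels' protocols, RNA (100 ng in total) went through 2 cycles of amplification and was labelled with biotin, and per the design text the arrays were analysed with dChip. The sample protocols and the design text name different labelling kits, and dChip's version and normalization were not given in the sources used here. Each of the 54675 probe sets has 1 deposited intensity per array, linear, as the authors' dChip analysis made it. Of these, 41091 carried 1 gene symbol, and 41037 were named through the gene identifier in a RefSeq gene table (GRCh38.p14), which also gave the spans. Arrays have no depth, and having 2 in a group limits precision.

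Values were turned into log2(value + 32), so folds of dim genes are understated. The probe set with the highest mean log2 stood for a gene. The 40% of genes below a mean signal of 27.25 were left out, and 11865 were tested with limma 3.58.1 in R 4.3.3 (4 group means, 1 spread over all arrays, trended prior, 4 residual and 17 prior degrees of freedom). P-values were adjusted by Benjamini-Hochberg within each contrast, and errors are standard errors. A separate fit tested 24655 probe sets. The steps were tested on simulated data. Alternatives were the offset, the filter, 3 rescalings, the choice of probe sets, the variance model, the replicate block and leaving out each array. Leaving out ATP5IF1, an inhibitor and no subunit, was added after the data were seen and changed 0 calls.

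The members and lists were chosen with earlier results of these data known. Genes were named by a rule: core subunits and isoforms whatever their values, the 6 largest called rises and falls per contrast whose arrays did not overlap, up to 4 called genes of each related list in a line, and genes whose probe sets were called in opposite directions. NDUFA4, NDUFA4L2 and UQCRFS1 of that rule are not used here as members. Other members are named to complete a complex, and these, COX8C and NDUFV2-AS1 were picked after their values were seen.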

Additional observations from a re-analysis of the deposited data

Results flagged for a closer look

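The responses of the lines differed by limma's test of the difference itself (OPM1 minus MM1S, log2, adjusted p under 0.05 over 11865 genes) for 32 of 69 members, a share (46.4%) near that of all genes (46.6%). The standard errors lay between 0.13 and 0.26. In complex I the response was higher in OPM1 for NDUFB7 (1.60), NDUFA7 (1.10), NDUFB11 (1.09), NDUFV1 (0.95), NDUFA1 (0.88), NDUFA6 (0.85), NDUFB10 (0.75), NDUFA2 (0.69) and NDUFS3 (0.53), and lower for NDUFA9 (-1.59), NDUFS1 (-1.10), NDUFS4 (-0.95) and NDUFB1 (-0.46). In complex III it was higher for UQCR11 (0.78) and UQCRQ (0.61) and lower for UQCRC2 (-1.02). In complex IV it was higher for COX8A (1.13), COX6A1 (0.76), COX4I2 (0.52) and COX5B (0.46) and lower for COX5A (-1.31). In ATP synthase it was higher for ATP5PD (0.56), ATP5F1B (0.50) and ATP5F1E (0.43) and lower for ATP5MC1 (-1.19), ATP5PB (-1.07), ATP5PF (-0.75), ATP5MC2 (-0.51), ATP5F1C (-0.51), ATP5F1A (-0.45), ATP5MC3 (-0.45) and ATP5PO (-0.44). With the OPM1 arrays scaled by the poly-A controls, 67 differences were called, each of them lower in OPM1. The poly-A controls, the 75th percentile and the 3' to 5' ratio of OPM1 control 1 moved with these groups, and their part was not tested.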

How the results depend on the processing

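Counts and medians of members kept their direction, within 1.5 times, for offsets of 16 and 64, with 60% of genes left out as dim and in the fit with a replicate block. Arrays share replicate numbers in the labels, and with the number as a replicate block 46 members were called in OPM1, 4 in MM1S, 43 between the untreated lines and 29 for the difference, where the fit without it called 48, 5, 42 and 32. The numbers share nothing else known: the deviations of same-numbered arrays correlated at 0.21 in both MM1S and OPM1 and at -0.12 between the untreated lines.

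The values that moved are these, and counts over all genes are not given beside them here. In MM1S, 3 members were called with no filter on dim genes and 3 with no variance trend (1 higher each), 22 after quantile normalization (19 higher), 24 at a common 75th percentile (22 higher, median 0.20), 8 (4 lower) with sets matching several transcripts left out, and 0 by the 2-fold rule of the design text (0 higher, 0 lower). In OPM1 that rule took 13 (7 higher, 6 lower), the 75th percentile gave 47 higher and 10 lower (median 0.62), quantile normalization a median of 0.32, and the poly-A scaling 0 higher and 68 lower (median -1.88). For the difference, the poly-A scaling gave 67 calls (0 higher, 67 lower, median -1.99), the 75th percentile 33 higher and 8 lower (median 0.42), the mean of probe sets 20 (11 higher, 9 lower) and the leaving out of shared sets 21 (6 lower). Between the untreated lines quantile normalization gave 18 higher, the 75th percentile 20 higher (median -0.024), the leaving out of shared sets 26 (20 lower), and the 2-fold rule 11 (1 higher, 10 lower). The poly-A scaling was not run for MM1S and the untreated lines, because these controls were at background on MM1S. With 1 array left out, counts ran over 2 to 8 in MM1S (0 to 5 higher), 37 to 48 in OPM1 (23 to 32 higher, 13 to 19 lower), 23 to 33 for the difference (9 to 16 lower) and 37 to 44 between the untreated lines (5 to 15 higher), and medians, in the same order, over 0.0025 to 0.20, 0.089 to 0.31, -8e-04 to 0.19 and -0.27 to -0.14. MM1S calls were 8 without either OPM1 control array, 3 without MM1S control 2 or either OPM1 Zalypsis array and 2 without either MM1S Zalypsis array. The 9 lower differences came without MM1S Zalypsis 1, and medians of the difference near 0 (0.0063 and -8e-04) without MM1S control 1 and without OPM1 control 1. A group left with 1 array was assumed to vary like the others.

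Under the poly-A scaling no tested member rose in OPM1, and only genes that the naming rule took for a comparison are listed here. Those single genes that turned sign are as follows (log2). Under the poly-A scaling in OPM1 these were NDUFV1 -1.19, UQCRC1 -1.76, COX4I1 -1.90, COX4I2 -0.87, COX5B -1.47, COX6A1 -1.15, COX6B1 -1.76, COX6B2 -1.02, COX6C -1.96, COX7A2 -1.72, COX7A2L -1.54, COX7B -2.08, COX8A -0.90, ATP5F1B -1.63, NDUFB7 -0.36, NDUFB11 -0.70, NDUFA7 -0.84, NDUFA6 -0.92, NDUFB10 -1.02, ATP5F1E -1.49 and UQCR11 -1.13, and for the difference NDUFB7 -0.38, COX8A -0.96, NDUFA7 -0.92, NDUFB11 -0.99, NDUFV1 -1.13 and NDUFA1 -1.21. At the 75th percentile in OPM1 they were COX7C 0.18 and NDUFA5 0.010. With the mean of probe sets they were COX7B -0.56 and NDUFA5 0.28 in OPM1 and NDUFS1 -0.53 between the untreated lines. With shared sets left out they were COX5B -0.55, ATP5PB 0.12, ATP5F1C 0.90 and UQCR11 -0.86 in OPM1 and NDUFS1 -0.80, COX5B 0.57, ATP5PB -0.069, NDUFB7 0.16 and UQCR11 0.34 between the untreated lines, where a dimmer set then stands for the gene. The causes of the other changes were not tested. The small number of arrays and, for dim sets, the signal over background limit the precision.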
